A study of Mus musculus with 12 samples.

Results

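The DNA damage checkpoint and the excision repair pathways were followed through 35 genes in hippocampal RNA-seq profiles of mice lacking upstream stimulatory factor 1 (USF-1). The genes were picked by name from the 55487 genes measured. They cover the 9-1-1 clamp with the ATR and ATM kinases, nucleotide excision repair (NER) with its ligases, and p53 with 3 of its response genes. One of them, Rad9a, entered the list because it is lower in the knock-out, so the difference between genotypes in Rad9a is given here as a description without a test. The other 34 genes were listed for their function, though with earlier results of these data known.

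Hippocampi came from 6 wild-type (WT) and 6 USF-1 knock-out (KO) mice of the strain C57Bl/6JRccHsd, aged 3 to 4 months. No mouse received a treatment according to the labels. The KO is constitutive and not limited to a tissue, and the WT mice are littermates. By label WT 1 to WT 4 are the 4 WT females and WT 5 and WT 6 the 2 WT males, while KO 1 and KO 2 are the 2 KO females and KO 3 to KO 6 the 4 KO males, where the number after the genotype only names a mouse. The comparison of genotypes was set up to find the hippocampal transcripts that accompany the behaviour of USF-1 KO mice.

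The whole hippocampus was read as bulk tissue, in which fewer cells of a type and less RNA per cell cannot be told apart. Each library held between 21679622 and 32091173 reads on genes, and values are normalised counts, that is read counts divided by the size factor of the library. Usf1 itself lay between 117 and 163 in the KO and between 842 and 1583 in the WT, so no library labelled WT fell in the KO range. WT 5 held the lowest WT value of Usf1, 842, and the other 5 WT mice lay between 1425 and 1583. The genotype of WT 5 was not checked beyond its label and these values. All 8 markers of hippocampal principal neurons were detected, with summed counts of 23321 to 33608 in the WT and 25818 to 38575 in the KO. WT 1 and WT 5 carried summed choroid plexus markers of 57384 and 162263, against 762 to 2642 in the other 10 mice.

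A cell answers DNA damage in steps. The Rad17 loader places a ring of Rad9, Rad1 and Hus1, the 9-1-1 clamp, at single-stranded DNA next to a lesion, and the tail of Rad9 recruits Topbp1, which switches on the kinase ATR. ATR then acts through Chk1, and its relative ATM acts through Chk2 after double-strand breaks. In NER a bulky lesion is recognised, unwound by the helicases of transcription factor TFIIH, cut out by a pair of nucleases, refilled and ligated, and neurons, which no longer divide, rely on the branch coupled to transcription. USF-1 binds the E-box CACGTG and is known from skin for driving NER genes after ultraviolet light.

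The E-box stands in the promoters of several of these genes, and the sequences around it are shown because they are the letters USF-1 is known to bind. RefSeq promoters, 250 bases before and 50 bases after the gene start, were matched for 31 of the 35 genes on build GRCm38.p6; Rad9a, Ddb2, Ercc3 and Xpc were not among them. The motif CACGTG, which reads the same on both strands, was found in 6 of the 31 genes (19.4%), against 8.09% of 27025 genes with a promoter, 11.2% of the 12147 of these that were tested for expression, and 7.15% of 32851 promoters counted one by one. A match is a string of letters and not a measured binding site. The windows below run 5′ to 3′ on the + strand and the capitals mark the E-box.
Gtf2h1: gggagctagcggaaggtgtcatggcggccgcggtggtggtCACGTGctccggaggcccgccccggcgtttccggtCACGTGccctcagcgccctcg
Trp53: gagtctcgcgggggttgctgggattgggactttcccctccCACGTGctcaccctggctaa
Lig3: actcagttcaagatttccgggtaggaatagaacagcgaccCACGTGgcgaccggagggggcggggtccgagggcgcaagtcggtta
Ercc8: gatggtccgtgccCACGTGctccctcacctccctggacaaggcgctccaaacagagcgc
Ercc6: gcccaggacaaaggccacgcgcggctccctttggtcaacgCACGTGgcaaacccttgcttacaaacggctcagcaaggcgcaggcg

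The window of Gtf2h1, the p62 subunit of TFIIH, lies at chr7:46796028-46796123 and holds the motif at 26 bases before the start and again at 9 bases after it. That of Trp53, which encodes p53, lies at chr11:69580329-69580388 with the motif at 10 bases after the start. In the window of Lig3 at chr11:82781048-82781133 the motif stands 21 bases before the start. The transcription-coupled repair genes Ercc8 (CSA) and Ercc6 (CSB) carry it farther out, at 237 bases before the start in chr13:108158488-108158546 and at 96 bases before the start in chr14:32513385-32513470. The sixth gene, Lig1, has its motif 36 bases after the start. None of these 6 genes passed the test between genotypes, and their log2 fold changes (KO minus WT) lay between -0.10 for Ercc8 and 0.10 for Gtf2h1.

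Among all 18221 genes tested, 0.741% were called lower in the KO and 0.159% higher at an adjusted p of 0.05 in limma. The 35 genes hold 1 of these, Rad9a, which was chosen for being lower on the same contrast, so this count is fixed by the choice and nothing is read from it. None of the other 34 genes passed in limma, in edgeR or in DESeq2, which called 0.829% and 3.38% of all genes. Their smallest adjusted p in limma was 0.294. Unadjusted limma p-values under 0.05 were found for 3 of the 34, Rad9b, Atrip and Gtf2h1, all higher in the KO, where 13.5% of all genes had such a p.

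The 34 genes differed little between genotypes. Their log2 fold changes had a median of 0.03 beside -0.00 for all genes tested, with 22 above 0 and 12 below. The median size of the fold change was 0.05, against 0.08 for all genes tested, and 26 of the 34 values lay within 0.1 of 0. The genes tested were not matched to the 34 by level, and fold changes of low genes scatter more. For 31 of them the 95% confidence interval stayed within ±0.5. For 32 it lay above the -0.68 of Rad9a (exceptions Cdkn1a and Gadd45a). Rad9a was chosen on this contrast, so its value is no independent yardstick and that count is a description only. All 35 genes passed the filter of a mean normalised count of 10, with means from 27.3 for Chek1 to 6074 for Ddb1. Mice of a genotype resembled each other closely, with a median coefficient of variation over the 35 genes of 6.64% in the WT and 6.06% in the KO.

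**Figure D1:**
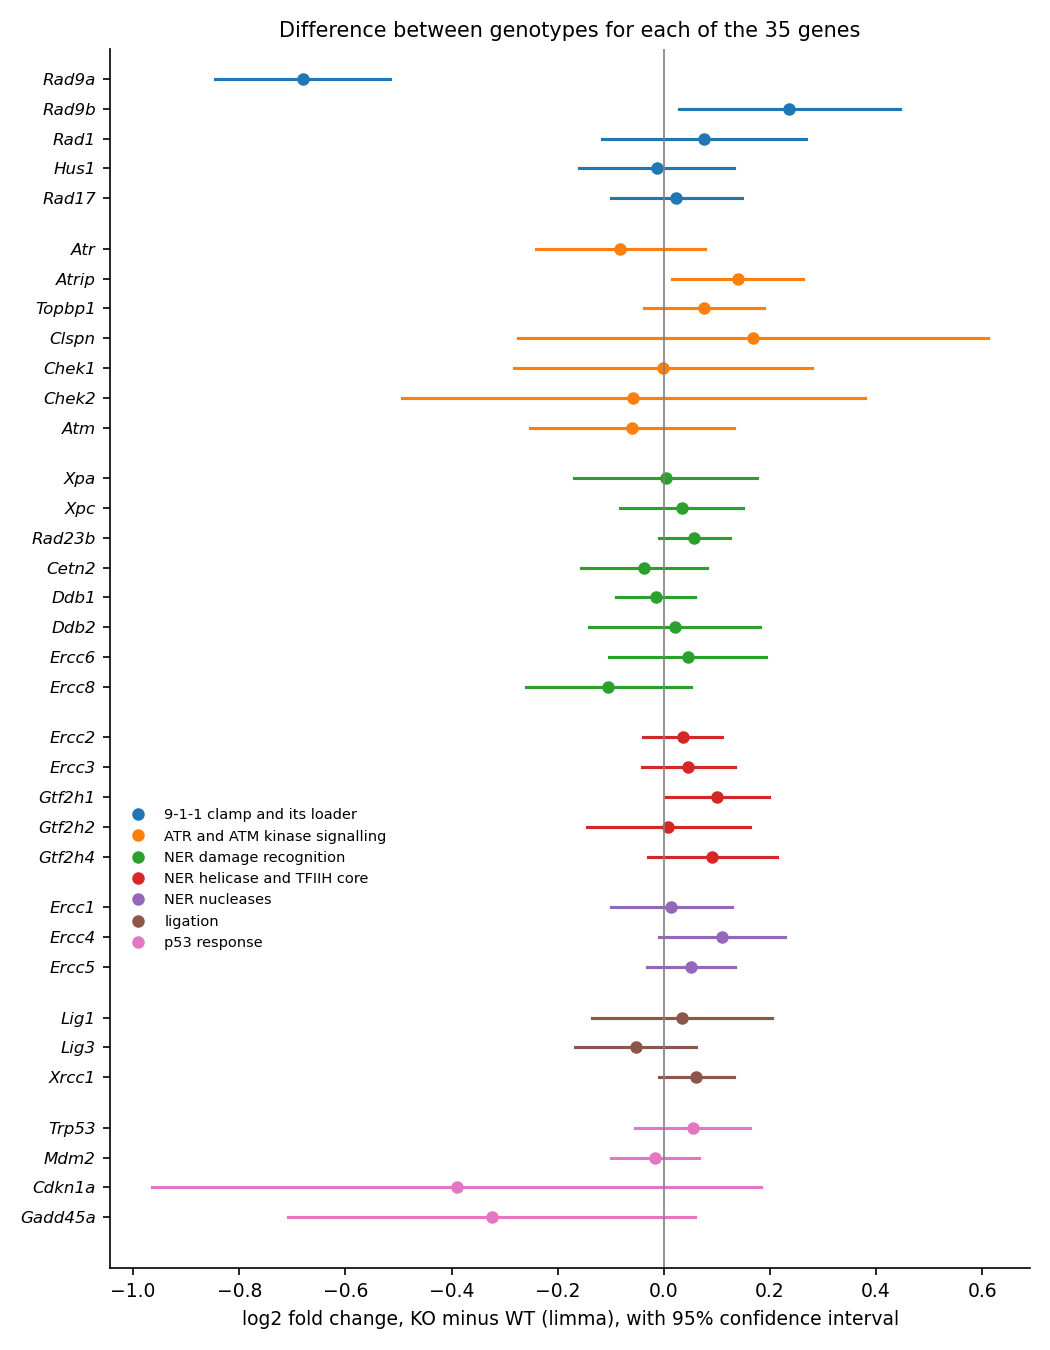
Log2 fold change of each of the 35 genes between KO and WT mice (x axis, KO minus WT; limma) with its 95% confidence interval as a line, ordered and coloured by role on the y axis. Rad9a at -0.68 stands to the left of the other 34 genes, whose values run from -0.39 (Cdkn1a) to 0.24 (Rad9b).

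Of the 5 genes of the clamp and its loader, Rad9a was the gene that differed. Rad9a (ENSMUSG00000024824, chr19:4195196-4201662, minus strand, mm10) read 231, 210, 223, 229, 223 and 228 normalised counts in WT 1 to WT 6 and 152, 133, 144, 115, 137 and 159 in KO 1 to KO 6. Every KO mouse lay below every WT mouse, a pattern that 1.5% of all genes tested showed in either direction. The choice of Rad9a on this contrast favours such a pattern, so nothing is read from that share. The means were 224 ± 7.58 and 140 ± 15.3 (SD, n = 6 mice per genotype, as for all means below), so the KO kept 62.5% of the WT level, with a log2 fold change (called fold change below) of -0.68 (SE 0.08). The coefficient of variation was 10.9% in the KO and 3.38% in the WT. It rests on the values Rad9a was chosen on and on lower counts in the KO, and the difference in spread was not tested.

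The difference in Rad9a was seen in both sexes. Female WT mice lay between 210 and 231 and female KO mice at 133 and 152, while male WT mice lay at 223 and 228 and male KO mice between 115 and 159. WT 5, the mouse with the low Usf1 value of 842, read 223 for Rad9a, inside the range of the other WT mice. With sex as a second term in limma, males and females did not differ in Rad9a beyond the spread between mice (log2 difference male minus female -0.02, SE 0.08, adjusted p = 0.984).

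Rad9b, the paralogue of Rad9a (ENSMUSG00000038569, chr5:122323223-122354233), had the highest fold change of the other 34 genes. It read 90.7, 99.0, 105, 90.9, 120 and 103 in the WT and 112, 102, 131, 120, 115 and 139 in the KO. The groups overlapped, with WT 5 level with KO 4, and the log2 fold change of 0.24 (SE 0.10; unadjusted p = 0.028) did not pass in limma after adjustment (adjusted p = 0.294). Exons of Rad9b share 23.2% of their bases with Pptc7 on the opposite strand, so part of its count cannot be assigned if strand was not kept.

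The other clamp genes were level. Rad17, the loader, read 368, 353, 345, 340, 360 and 378 in the WT and 362, 408, 361, 337, 383 and 334 in the KO. Its highest and lowest values were both in KO mice, and the log2 fold change was 0.02 (95% confidence interval -0.10 to 0.15, as for the ranges in brackets after other fold changes). For Rad1 the fold change was 0.08 (-0.12 to 0.27), from 155 ± 8.83 to 165 ± 22.1, and for Hus1 it was -0.01 (-0.16 to 0.13), from 317 ± 14.3 to 315 ± 32.2.

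**Figure D2:**
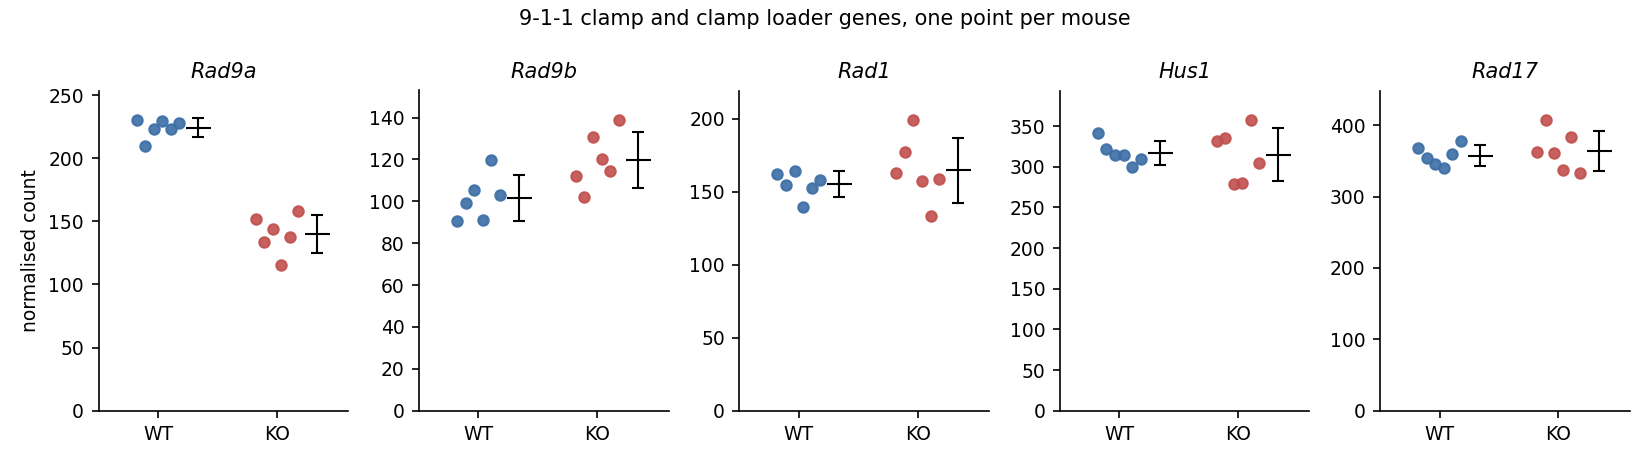
Normalised counts (y axis, from 0) of the clamp genes Rad9a, Rad9b, Rad1 and Hus1 and of the loader gene Rad17 in each WT and KO mouse (points), with the mean and SD of each genotype as a bar to the right. The KO mice lie at 115 to 159 for Rad9a, below the WT mice at 210 to 231, while the genotypes overlap in the other panels.

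The balance of clamp transcripts differed with it. Divided by exon length, Rad9a stood at 4.53 ± 0.33 times Rad1 within the same WT mouse and at 2.70 ± 0.45 times in a KO mouse. Against Hus1 the ratio was 1.93 ± 0.10 in the WT and 1.22 ± 0.16 in the KO, so Rad9a was above Hus1 per kilobase in every mouse of both genotypes (1.05 to 2.03). Rad9b, the less abundant paralogue, stood at 0.248 ± 0.030 of the Rad9a level per kilobase in the WT and at 0.470 ± 0.060 in the KO. These ratios carry the Rad9a values the list was chosen on and were not tested. Exon length counts every annotated exon base of a gene (2362 for Rad9a, 7400 for Rad1, 6450 for Hus1), whichever transcripts are expressed. Levels of different genes per kilobase, here and below, are therefore approximate.

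The neighbourhood of Rad9a on chromosome 19 held a second transcript that was lower in the KO. Within 20 kb of Rad9a lie 9 other genes, of which 5 were high enough to be tested and 1 passed. Gm30082 (chr19:4201779-4203240, plus strand), annotated as a long noncoding RNA from a bidirectional promoter, starts 117 bases from the start of Rad9a and runs in the opposite direction. It read 25.5, 23.9, 25.9, 22.7, 14.9 and 18.2 in the WT and 13.8, 10.1, 7.63, 10.9, 12.4 and 6.18 in the KO.

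The groups did not overlap in Gm30082, and the log2 fold change was -1.05 (SE 0.22; limma adjusted p = 0.0398). The call is fragile at these low counts. It was kept in 8 and lost in 12 of the 20 other settings that gave a value, with adjusted p between 0.0271 and 0.117 and fold changes between -1.15 and -0.83. It was lost with sex as a covariate (adjusted p = 0.0824), without the filter on low counts (0.0950), without any one of WT 1, WT 2, WT 3, WT 6 or KO 2 to KO 6, and without both WT 1 and WT 5 (0.0927).

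Ppp1ca, a catalytic subunit of protein phosphatase 1 on the opposite strand, overlaps the 3′ end of Rad9a by 225 bases (9.53% of the exon bases of Rad9a). It was more abundant and level, at 3863 ± 84.2 in the WT and 3862 ± 107 in the KO (log2 fold change -0.00, SE 0.03). The library kit in the labels is made with and without strand marking, and the strand setting of the counting is not given in the sources used here, so reads in the shared stretch cannot be assigned. The other neighbours tested, Carns1 (-0.49, adjusted p = 0.131), Gm50230 (-0.43, 0.412) and Clcf1 (0.32, 0.623), did not pass in limma. Carns1, which makes the dipeptide carnosine, passed in DESeq2 (adjusted p = 0.0222) and in limma without WT 4 (0.0131). Carns1 ranked the WT mice in the same order as the oligodendrocyte marker sums given below, from 165 in WT 4 to 333 in WT 1. In the KO the lowest mouse was also shared, KO 2 at 148, while the highest Carns1 value was in KO 3 (203). This relation was not tested.

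**Figure D3:**
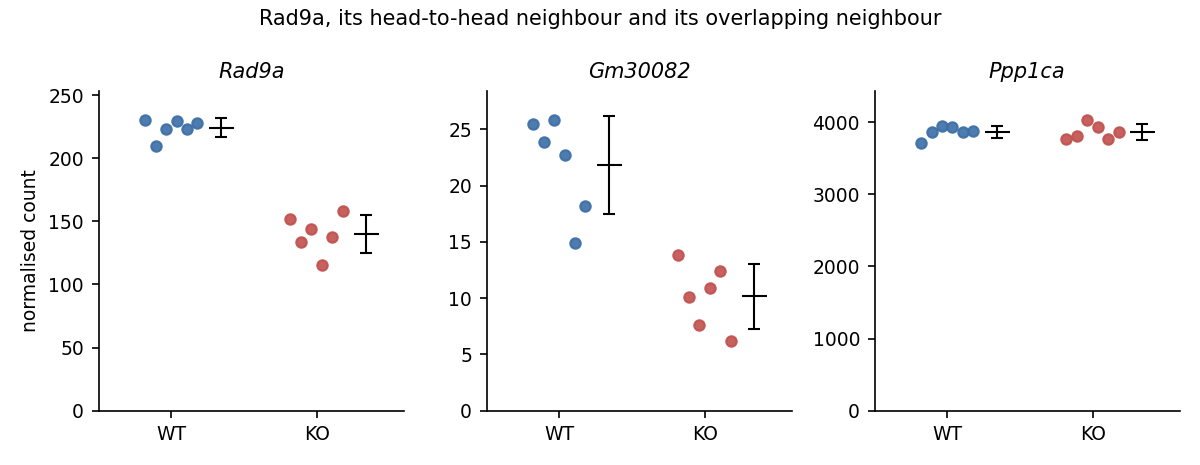
Normalised counts (y axes, from 0) of Rad9a, of Gm30082, which starts beside it on the other strand, and of Ppp1ca, which overlaps its 3′ end, in each mouse (points) with mean and SD. Rad9a and Gm30082 separate the genotypes, with Gm30082 at 14.9 to 25.9 in the WT and 6.18 to 13.8 in the KO, and Ppp1ca is level near 3863.

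Markers of some other cell types had lower values in the KO and are set beside Rad9a. Those of hippocampal principal neurons went the other way, with 7 of 8 log2 fold changes above 0 (median 0.17), none passing in limma, edgeR or DESeq2. The 5 oligodendrocyte markers Mbp, Mog, Mag, Mobp and Cldn11 were all lower in the KO with log2 fold changes of -0.70 to -0.59, none passing in limma (adjusted p 0.0846 to 0.129) or edgeR and all passing in DESeq2. Their summed count was 55929 to 121418 in the WT and 48873 to 76449 in the KO. WT 4 had the lowest WT sum, 55929, inside the KO range, and read 229 for Rad9a, inside the WT range. KO 6 and KO 1, with the highest sums of the KO at 76449 and 74486, also had the highest Rad9a values of the KO, 159 and 152. KO 3, KO 5, KO 4 and KO 2 followed with sums of 66760, 61393, 50605 and 48873 and Rad9a values of 144, 137, 115 and 133. The other WT mice, WT 1, WT 6, WT 2, WT 5 and WT 3, had sums of 121418, 115218, 104827, 95257 and 92660. Their Rad9a values were 231, 228, 210, 223 and 223, so the WT mouse lowest in Rad9a, WT 2, was not the one with the lowest sum.

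The 6 microglia markers had log2 fold changes of -0.25 to -0.18, none passing in limma (adjusted p 0.115 to 0.438) or edgeR and 1 passing in DESeq2, with sums of 6922 to 9560 in the WT and 6438 to 7341 in the KO. Sums of the 6 astrocyte markers (44948 to 54848 and 45057 to 53589), of the 6 endothelial markers (2808 to 3652 and 2913 to 3559) and of the 8 markers of dividing cells (938 to 1124 and 967 to 1075) overlapped between genotypes. No marker on these lists was at 0. The choroid plexus carriers WT 1 and WT 5 read 231 and 223 for Rad9a, and with both left out the log2 fold change of Rad9a was -0.67. The part of oligodendrocytes and microglia in the difference of Rad9a was not tested beyond these values.

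**Figure D4:**
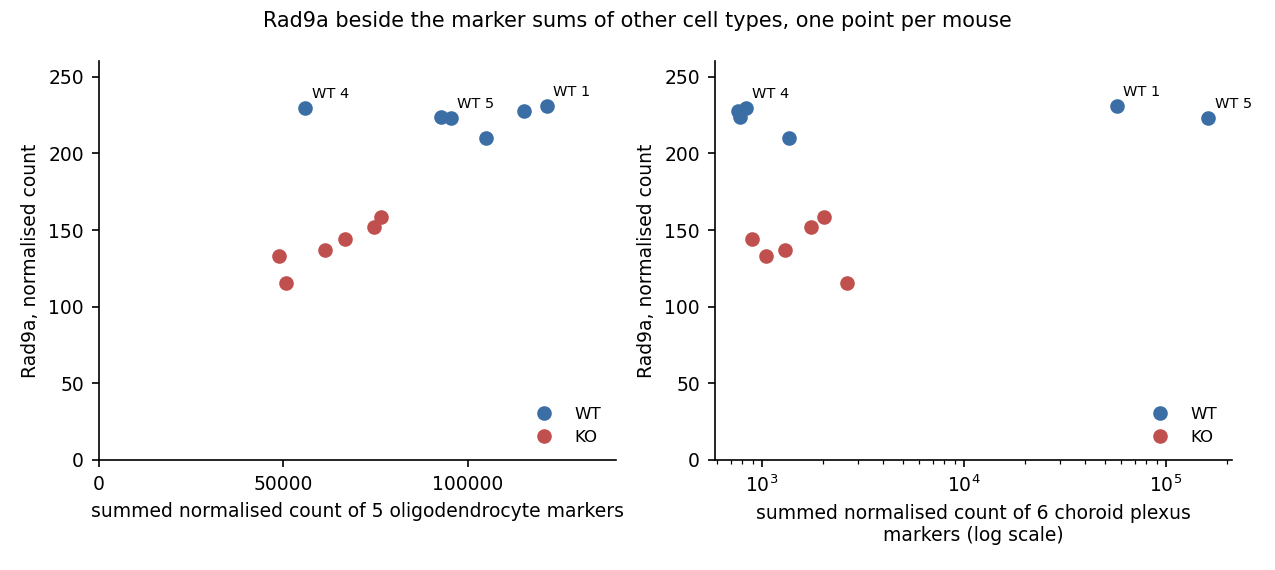
Rad9a (y axis, normalised count) against the summed normalised count of 5 oligodendrocyte markers (left x axis, linear) and of 6 choroid plexus markers (right x axis, log scale), with 1 point per mouse. WT 4 lies at a KO-like oligodendrocyte sum of 55929 with a Rad9a value of 229, and WT 1 and WT 5 stand apart in choroid plexus markers but not in Rad9a. Among the KO mice, KO 6 and KO 1 lie highest on both axes of the left panel. Among the WT mice, WT 2 lies lowest in Rad9a (210) at an oligodendrocyte sum of 104827.

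None of the 7 genes of ATR and ATM signalling passed the test. Atrip, the partner that brings ATR to single-stranded DNA (ENSMUSG00000025646, chr9:109057933-109074124), read 476, 444, 489, 515, 458 and 464 in the WT and 499, 552, 464, 517, 524 and 581 in the KO. KO 3 lay at the level of WT 6 and the genotypes overlapped, with a log2 fold change of 0.14 (SE 0.06, unadjusted p = 0.030, adjusted p = 0.302 in limma). Atrip shares 16.0% of its exon bases with Trex1 on the same strand, and those reads cannot be told apart. Atm was the most abundant of the group by count, with 543, 559, 646, 684, 537 and 544 in the WT and 508, 595, 549, 682, 577 and 466 in the KO. The highest mice of either genotype, WT 4 and KO 4, were level with each other, and the fold change was -0.06 (-0.25 to 0.13).

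The kinase Atr itself had a fold change of -0.08 (-0.24 to 0.08) and Topbp1, its activator, one of 0.08 (-0.04 to 0.19). The effector kinases were read at low counts, Chek1 at 27.3 ± 3.53 in the WT and 27.2 ± 2.65 in the KO, and Chek2 at 44.6 ± 9.0 and 43.5 ± 12.7. Clspn (Claspin), the adaptor that hands Chk1 to ATR, read 35.4 ± 9.34 and 39.4 ± 8.92. Precision was low here, and the interval of the fold change ran from -0.28 to 0.28 for Chek1, from -0.49 to 0.38 for Chek2 and from -0.28 to 0.61 for Clspn. Per kilobase of exon Clspn was the lowest of all 35 genes in the WT at 4.92, beside 66.3 for Atrip, the highest of this group.

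The 8 genes that recognise NER lesions were level between genotypes. Ddb1, a subunit of the ultraviolet damage sensor and of the CUL4 ubiquitin ligases, was the most abundant of the 35 genes, with 5979, 6248, 5937, 5792, 6566 and 6124 in the WT and 6029, 6024, 5826, 6140, 6113 and 6110 in the KO. All 6 KO values lay inside the WT range, and the fold change of -0.02 had a narrow interval of -0.09 to 0.06. Its partner Ddb2 had a fold change of 0.02 (-0.14 to 0.18). Per kilobase of exon Ddb1 stood at 953 in the WT and Rad23b, which stabilises Xpc, at 758, whereas Ddb2 stood at 123 and Xpc, the lesion sensor of the whole genome, at 100.2.

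Rad23b had a fold change of 0.06 (-0.01 to 0.12), Xpc one of 0.03 (-0.08 to 0.15) and Cetn2, the centrin of the same complex, one of -0.04 (-0.16 to 0.08). Xpa, which checks the opened lesion, stood at 144 ± 12.8 in the WT and 144 ± 10.9 in the KO. The genes of transcription-coupled repair did not pass either. Ercc8 lay at 221 ± 22.7 and 205 ± 9.86 (-0.10, -0.26 to 0.05; limma adjusted p = 0.571) and Ercc6 at 1005 ± 105 and 1035 ± 78.5 (0.04, -0.10 to 0.19).

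The 5 genes of TFIIH had fold changes of 0.01 to 0.10, all above 0 and none passing. Gtf2h1 (ENSMUSG00000006599, chr7:46796103-46823800), with its E-box pair, read 851, 879, 908, 849, 812 and 837 in the WT and 910, 906, 1023, 911, 908 and 855 in the KO. KO 3 lay above every WT mouse, and KO 1, KO 4 and KO 5 (909.8, 911.1 and 908.2) lay barely above the highest, WT 3 (907.8). KO 2, just below WT 3 at 906.3, and KO 6 lay inside the WT range. The fold change of Gtf2h1 was 0.10 (SE 0.05, unadjusted p = 0.043, adjusted p = 0.350 in limma). The helicase gene Ercc2 (XPD) read 995, 1061, 1080, 1017, 1033 and 1005 in the WT and 1077, 1097, 1028, 1025, 1055 and 1063 in the KO. The genotypes overlapped and the fold change of Ercc2 was 0.04 (-0.04 to 0.11). The second helicase gene Ercc3 (XPB) had a fold change of 0.05 (-0.04 to 0.13), and the core subunits Gtf2h2 and Gtf2h4 had 0.01 (-0.14 to 0.16) and 0.09 (-0.03 to 0.21).

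The nuclease and ligation genes were also level. Ercc5 (XPG), which cuts on the 3′ side of the lesion, read 672, 627, 651, 694, 654 and 632 in the WT and 683, 689, 664, 704, 681 and 652 in the KO. Its values overlapped between genotypes, and the fold change was 0.05 (-0.03 to 0.14). For the partners of the 5′ cut, Ercc1 and Ercc4 (XPF), it was 0.01 (-0.10 to 0.13) and 0.11 (-0.01 to 0.23).

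Lig3, the ligase that works with Xrcc1 and also in mitochondria, read 919, 866, 1003, 987, 850 and 915 in the WT and 878, 960, 931, 906, 815 and 847 in the KO. KO 5 was the lowest and WT 3 the highest of the 12, with a fold change of -0.05 (-0.17 to 0.06). The scaffold gene Xrcc1 had the smallest coefficient of variation of the 35 genes in the KO (1.20%), with 834 ± 24.6 and 870 ± 10.4 (0.06, -0.01 to 0.13), and the replicative ligase Lig1 had a fold change of 0.03 (-0.14 to 0.20). Overlapping genes on the opposite strand share 25.1% of the exon bases of Lig3 (Rffl) and 23.8% of those of Ddb2 (Acp2). For Ercc2 the shares were 24.6% with Gm26852, read at a mean of 0.264, and 17.8% with Klc3. Gadd45a shares 19.1% with E230016M11Rik, also on the opposite strand. In all, 14 of the 35 genes share exon bases with another gene.

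The p53 response was split between level and variable genes. Mdm2, the ubiquitin ligase that p53 both induces and is degraded by, read 1114, 1095, 1181, 1118, 1166 and 1074 in the WT and 1076, 1190, 1107, 1120, 1125 and 1058 in the KO. The genotypes were level, with a fold change of -0.02 (-0.10 to 0.07), and Trp53 had a fold change of 0.05 (-0.05 to 0.16).

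Cdkn1a, which encodes the cell cycle inhibitor p21, read 142, 216, 122, 393, 118 and 142 in the WT and 152, 87.4, 101, 142, 158 and 160 in the KO. WT 4 stood apart at 393, and without it the WT mean of 148 ± 39.6 (n = 5) was close to the KO mean of 133 ± 31.2. The log2 fold change of Cdkn1a was -0.39 (SE 0.27, adjusted p = 0.567 in limma) with all mice and -0.15 (adjusted p = 0.747) without WT 4. Gadd45a, a stress gene that p53 induces, read 88.3, 101, 80.3, 148, 56.3 and 75.6 in the WT and 72.4, 76.2, 58.9, 67.9, 73.3 and 71.1 in the KO. WT 4 was again the highest of the 12, and the fold change of Gadd45a was -0.32 (adjusted p = 0.461) with it and -0.17 (adjusted p = 0.575) without it.

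**Figure D5:**
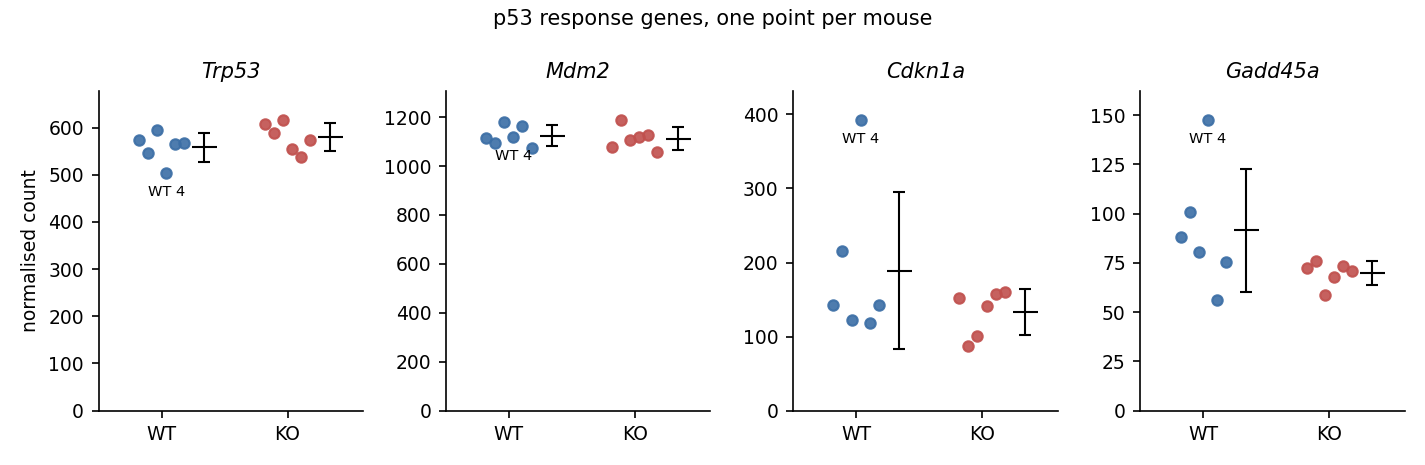
Normalised counts (y axes, from 0) of Trp53, Mdm2, Cdkn1a and Gadd45a in each mouse (points) with mean and SD to the right, and WT 4 named. WT 4 stands above the other mice in Cdkn1a (393) and Gadd45a (148) and not in Trp53 or Mdm2.

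Around the 35 genes, 117 further genes on 6 lists were read, of which 113 were tested. None passed in limma or edgeR, 13 (11.5%) had an unadjusted limma p under 0.05 beside 13.5% of all genes, and the median log2 fold change was 0.02. DESeq2 passed 3 of the 113, beside 3.38% of all genes, so the lists held no larger share than the background. These were Uvssa, which stabilises Ercc6 at stalled polymerases (means 365 and 454, 0.32, SE 0.09), the cell cycle phosphatase gene Cdc25b (706 and 820, 0.21, SE 0.06) and the p53 target Trp53inp1 (360 and 305, -0.25, SE 0.07). Their adjusted p-values were 0.108, 0.127 and 0.137 in limma and 0.0279, 0.0342 and 0.0446 in DESeq2.

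By list, the 22 genes tested of other checkpoint signalling had a median fold change of -0.00, with Cdc25b and the clamp loader subunit Rfc5 (0.17, adjusted p = 0.328) at the smallest p-values. The 20 other NER genes had a median of 0.04, with 14 above 0, and Uvssa was followed by Usp7, the deubiquitinase that acts with it (0.09, adjusted p = 0.312). In base excision repair (18 genes, median 0.03) the glycosylase genes Mpg (0.23, adjusted p = 0.169) and Neil2 (-0.41, 0.320) went in opposite directions.

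In mismatch repair (8 genes, median 0.06) the smallest p-values belonged to Mlh3 (0.12, adjusted p = 0.181) and to the nuclease gene Exo1 (0.63, 0.517), which was read at only 8.75 and 12.3 counts. In double-strand break repair (22 genes, median -0.01) they belonged to the polymerase gene Polm (0.24, adjusted p = 0.198) and to Brca1 (-0.39, 0.341). The 23 p53 targets tested had a median of 0.00, and Trp53inp1 was followed by Gadd45g (-0.24, adjusted p = 0.209). None of these values passed in limma.

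Sex is unequal between the genotypes by the labels, whereas the study's text describes equal numbers. Xist, the transcript of the inactive X, lay between 16816 and 22913 in the 6 mice labelled female and between 15.5 and 51.0 in the 6 labelled male, and the Y-linked Ddx3y at 0.795 to 3.41 and at 958 to 1341, so the labels were used. Sex was tested with genotype in the same fit. None of the 35 genes differed between males and females after adjustment in limma or edgeR, where limma called 0.0549% of all genes. The smallest adjusted p of the 35 was 0.642. Unadjusted p-values under 0.05 were found for 4 of the 35 in limma and in edgeR, where 6.45% of all genes had one in limma. In these Clspn (log2 difference male minus female 0.53), Rad9b (0.22) and Xpc (0.14) were higher in males and Gadd45a (-0.38) in females. The genotypes differ in their share of males, and with sex as a covariate the genotype difference of Rad9b was 0.16 (adjusted p = 0.502) in place of 0.24. With the same covariate that of Clspn was -0.01 in place of 0.17 and that of Gadd45a -0.20 in place of -0.32, neither passing.

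The test of whether the genotype difference itself varied with sex passed for no gene. The interaction of sex and genotype passed for 0 of the 18221 genes in limma, and an unadjusted p under 0.05 was found for 3.45% of them. Among the 35 genes it was found for 1, Ercc8 (-0.31).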

How the data were processed

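RNA was taken from hippocampi, libraries were made with the NEBNext Ultra II RNA kit, and the processing notes name STAR 2.5.0a, edgeR 3.22.2 and mm10, while the study's methods name DESeq2. The authors deposited 1 table of counts divided by size factors (a normalised signal), whose values are whole multiples of a step in each library (100% within 0.001), so reads could be recovered. The 18221 genes averaging 10 or more normalised counts went into limma 3.58.1 (R 4.3.3, trend, two-sided, Benjamini-Hochberg) on log2(normalised count + 1), which understates changes of low genes. edgeR 4.0.16 and DESeq2 1.42.0 were run on the recovered reads, and the tests were tried on simulated data. DESeq2 gave no adjusted p for 1770 genes. Exon lengths and overlaps came from GENCODE M21, where 55141 of 55487 identifiers matched. Fold changes are KO minus WT with limma's standard error or 95% confidence interval.

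The members and lists were chosen with earlier results of these data known. Values of every mouse were given for Rad9a, for members with an unadjusted p under 0.05 and for the most abundant member of each role, and from each further list the 2 genes of smallest p were named. The further lists were other checkpoint signalling, other NER, base excision repair, mismatch repair, double-strand break repair and p53 targets. All neighbours tested within 20 kb of Rad9a were named, and the values of every mouse for Cdkn1a, Gadd45a and Gm30082 were chosen after they were seen. Some genes of the further lists are not reported here and were left out of sums and counts.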

Additional observations from a re-analysis of the deposited data

Results flagged for a closer look

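In groups of 6 mice, 8 of the 82 groups examined held a mouse whose distance to the nearest other mouse was, as a share of the range of its group, above Dixon's critical value at the 95% level. Chance alone gives about 1 in 20 such groups, or 4.1 here. Among the 35 genes these were Rad9a in WT 2 (210, other WT mice 223 to 231), Ddb1 in KO 3 (5826, others 6024 to 6140), Gtf2h1 in KO 3 (1023, others 855 to 911), Ercc4 in WT 6 (510, others 580 to 620) and Cdkn1a in WT 4 (393, others 118 to 216). Outside the list they were Usf1 in WT 5 (842, others 1425 to 1583), Gm50230 in WT 1 (26.2, others 11.4 to 15.9) and Ppp1ca in WT 1 (3707, others 3857 to 3940).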

How the results depend on the processing

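The count of members called was 1 under each of 22 other settings, in each case Rad9a, which was chosen for its lower value on this contrast, so the count is no support (pseudocounts of 0.5 and 5, no filter on low genes or one at 50, equal library totals, a term for sex, limma with no mean-variance trend, edgeR, DESeq2, each mouse left out, and, chosen after seeing the data, both mice with high choroid plexus markers left out). The log2 fold change of Rad9a ranged from -0.72 (without KO 6) to -0.63 (without KO 4). For the other 34 genes none of 745 alternative values was called, 46 changed sign, and the lowest adjusted p was 0.178 (Atrip without WT 4). Of the further lists, 0 genes were called in the main test, 3 with DESeq2, 1 with both choroid plexus mice left out and between 0 and 1 with a single mouse left out. The 1 gene was Uvssa, called without WT 5 (0.39, adjusted p = 0.0192) and without WT 1 and WT 5 (0.34, adjusted p = 0.0411). The cause was not tested. The count of sex differences stayed at 0 with edgeR.

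No paired analysis was possible because the labels give no replicate numbers shared between genotypes. The number of genes called among all 18221 ranged from 64 to 515 when single mice were left out and was 616 with DESeq2. Rescaling moved the median of all genes by 0.0036. At about 27 counts for Chek1, depth limits what could be seen of the effector kinases, and 6 members share over 10% of their 75-base stretches with another gene.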
